A study of Mus musculus with 16 samples.

Results

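The genes described here are 10 textbook parts or targets of the NRF2 antioxidant response, measured in mouse pancreas: Nfe2l2, Keap1, Nqo1, Srxn1, Txnrd1, Gclm, Gclc, Hmox1, Slc7a11 and Prdx1. They were picked by symbol as known NRF2 genes, with earlier results of these data known, and all 10 were found among the 24019 genes of the count table. The data are 16 RNA libraries from whole pancreas, 4 in each of 4 groups. The genotypes were wild type (WT) and homozygous Adam17ex, an allele that lowers the amount of the membrane sheddase ADAM17 throughout the animal, in littermates on the C57BL/6J background aged 6 to 8 weeks. Each genotype got either cerulein, at 50 µg/kg in each of 7 intraperitoneal injections given 1 h apart, or 50 µl of phosphate-buffered saline (PBS) per injection, and tissue was taken 1 h after the last injection. Cerulein is an analogue of cholecystokinin that overstimulates the enzyme-secreting acinar cells and causes acute pancreatitis. The PBS groups held 0 males in WT and 2 in Adam17ex, and the cerulein groups 1 and 2.

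Each value is a count of unique molecular identifiers (UMIs), the barcodes that mark single cDNA molecules, read from the poly(A) end of transcripts. Libraries held 455547 to 1476159 UMIs, and the first 3 Adam17ex PBS libraries were the shallowest, at 492878 or fewer. Levels below are TMM-scaled CPM, the counts divided by library size after edgeR's correction for composition, written here as CPM and given as mean ± SD with n = 4. Differences are log2 fold changes ± SE from edgeR's quasi-likelihood test with sex as a covariate, and a gene was called where its Benjamini-Hochberg adjusted p over 8236 tested genes was under 0.05. The labels do not say outright that each library came from a different animal, so p-values measure the spread between libraries. Adam17 itself gave 41 UMIs with PBS and 68 with cerulein in all WT libraries, and 10 and 15 in those labelled Adam17ex. Scaled for depth, it was at 10.3 ± 3.78 CPM in WT and 4.07 ± 1.75 in Adam17ex with PBS, and 14.3 ± 3.85 and 3.30 ± 0.709 with cerulein. The genotype difference was called with cerulein (-2.05 ± 0.40, edgeR adjusted p = 0.00138). With PBS it was not called (-1.21 ± 0.49, edgeR adjusted p = 0.210) and the groups overlapped. These UMIs report the transcript's end and not the altered part of the gene. The labels also carry a 4-digit code of unstated meaning, whose ranges do not overlap between the 2 WT groups, nor between the genotypes with PBS or with cerulein. If it orders cohorts, cohort cannot be told apart from treatment in WT or from genotype.

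NRF2, encoded by Nfe2l2, is a transcription factor of the cap'n'collar family. KEAP1 holds it in the cytoplasm and passes it to a CUL3 ubiquitin ligase, so that it is degraded. Electrophiles and oxidants modify cysteines of KEAP1, NRF2 escapes, pairs with a small MAF protein and binds antioxidant response elements. Its targets make glutathione, reduce thioredoxin and peroxiredoxins, break down haem and reduce quinones. Acinar cells secrete large amounts of disulfide-bonded protein, and oxidative stress with loss of glutathione is a known feature of cerulein pancreatitis. Slc7a11 is also a known target of ATF4, the factor of the amino acid and unfolded protein responses.

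In the RefSeq promoter table of GRCm38.p6, 8 of the 10 genes had an entry, in 10 windows, and Gclc and Hmox1 had none. The 250 bases before each start were searched on both strands for the core of the antioxidant response element, spelled TGACNNNGC or TGAGNNNGC. Of all 32851 promoters in the table, 10.2% held the first form, 14.4% the second and 23.01% at least 1 of them. Among the 10 genes 6 held a match, with 7 matches in all. The matches are shown because they are the letters the pathway is named for, 29 bases each, 5′ to 3′ on the gene's strand, with the 9 matching bases in capitals.
Nfe2l2 (chr2:75704885-75704913, minus strand): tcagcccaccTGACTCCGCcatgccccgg
Srxn1 (chr2:152105356-152105384, plus strand): tctactgagaGCCGACTCAtcctctctgg
Srxn1 (chr2:152105469-152105497, plus strand): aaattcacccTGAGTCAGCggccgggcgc
Txnrd1 (chr10:82859104-82859132, plus strand): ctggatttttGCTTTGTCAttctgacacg
Prdx1 (chr4:116685456-116685484, plus strand): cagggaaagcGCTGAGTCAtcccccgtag
Gclm (chr3:122245413-122245441, plus strand): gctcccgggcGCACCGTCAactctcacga
Slc7a11 (chr3:50443692-50443720, minus strand): taatgttggcGCTTTCTCAagctggagtt
Those of Nfe2l2 and the Srxn1 match nearest the start read in the sense direction, and the other 5 in the antisense direction. The Srxn1 match nearest the start, 45 bases before it, and the Prdx1 match, 133 bases before it, also overlap TGANTCA, the AP-1 site bound by FOS and JUN, which 6.75% of all promoters held. The Txnrd1 match lies in 1 of its 3 windows, where annotated exons begin after 1 base. The Nfe2l2 window begins inside an annotated exon of another gene, E030042O20Rik. The matches of Txnrd1 and Nfe2l2 are thus not in stretches shown to be free of exons. No match was found in the windows of Nqo1 and Keap1, which says only that these letters are not in those bases.

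The upstream bases of Srxn1 and Gclm are given at greater length, because the transcripts of these genes moved in opposite directions in the data below while both windows held a match.
Srxn1 (chr2:152105274-152105515, plus strand): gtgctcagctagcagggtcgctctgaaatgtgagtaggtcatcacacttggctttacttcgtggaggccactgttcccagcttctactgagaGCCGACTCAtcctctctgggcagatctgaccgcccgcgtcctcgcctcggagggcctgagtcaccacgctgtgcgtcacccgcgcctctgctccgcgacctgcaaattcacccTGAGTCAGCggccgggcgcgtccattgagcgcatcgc
Gclm (chr3:122245307-122245486, plus strand): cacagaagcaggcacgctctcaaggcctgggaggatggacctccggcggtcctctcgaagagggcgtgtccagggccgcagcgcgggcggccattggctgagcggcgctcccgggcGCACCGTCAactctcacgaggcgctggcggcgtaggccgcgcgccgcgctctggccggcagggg
The runs hold the first 242 and 180 of the 250 bases. That of Srxn1 stops where its annotated exon begins and that of Gclm at the RefSeq start of the gene. Capitals mark the same matches as above.

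Between cerulein and PBS 6 of the 9 testable genes were called in WT and 4 in Adam17ex, and not in one direction. In WT mice 5 of the 9 testable genes rose, Srxn1, Gclc, Hmox1, Txnrd1 and Nfe2l2, and Gclm fell. Of all tested genes 41.1% were called in this comparison, 19.8% higher and 21.3% lower. In Adam17ex mice Srxn1, Gclc and Txnrd1 rose and Gclm fell, against 30.3% of all tested genes called, 14.1% higher and 16.2% lower. The median log2 fold change of the 9 genes was 0.78 in WT and 0.74 in Adam17ex, beside -0.04 and -0.03 for all tested genes. The 4 cerulein libraries lay wholly above or below the 4 PBS libraries for 6 of the 10 genes in WT, where 39.3% of tested genes did so, and for 4 in Adam17ex, where 25.7% did. Srxn1 and Hmox1 reached the expression filter only through libraries in which they were high, Srxn1 in all 8 cerulein libraries and 1 PBS library and Hmox1 in 5 cerulein libraries. Nqo1 did not reach it, and the other 7 genes reached it in all 16 libraries. The counts of genes that rose and the medians above rest partly on Srxn1 and Hmox1. Of the other 7 genes, Gclc, Txnrd1 and Nfe2l2 rose in WT, and Gclc and Txnrd1 in Adam17ex. Their middle log2 fold change was 0.19 in WT, that of Prdx1, and 0.52 in Adam17ex, that of Nfe2l2. Cell type markers moved in the same comparisons. Duct markers were higher for 5 of 7 tested genes and lower for 1 in WT, with a summed level of 343 to 388 CPM with PBS and 1092 to 1392.2 with cerulein, and higher for 2 in Adam17ex. Acinar markers were lower for 6 of 13 and higher for 1 in WT, and 2 and 2 in Adam17ex, and adipocyte markers were lower for 6 of 6 and 5 of 6. Islet markers were lower for 0 of 8 in WT and 7 of 8 in Adam17ex. The part of these cells in the cerulein results was not tested.

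**Figure D1:**
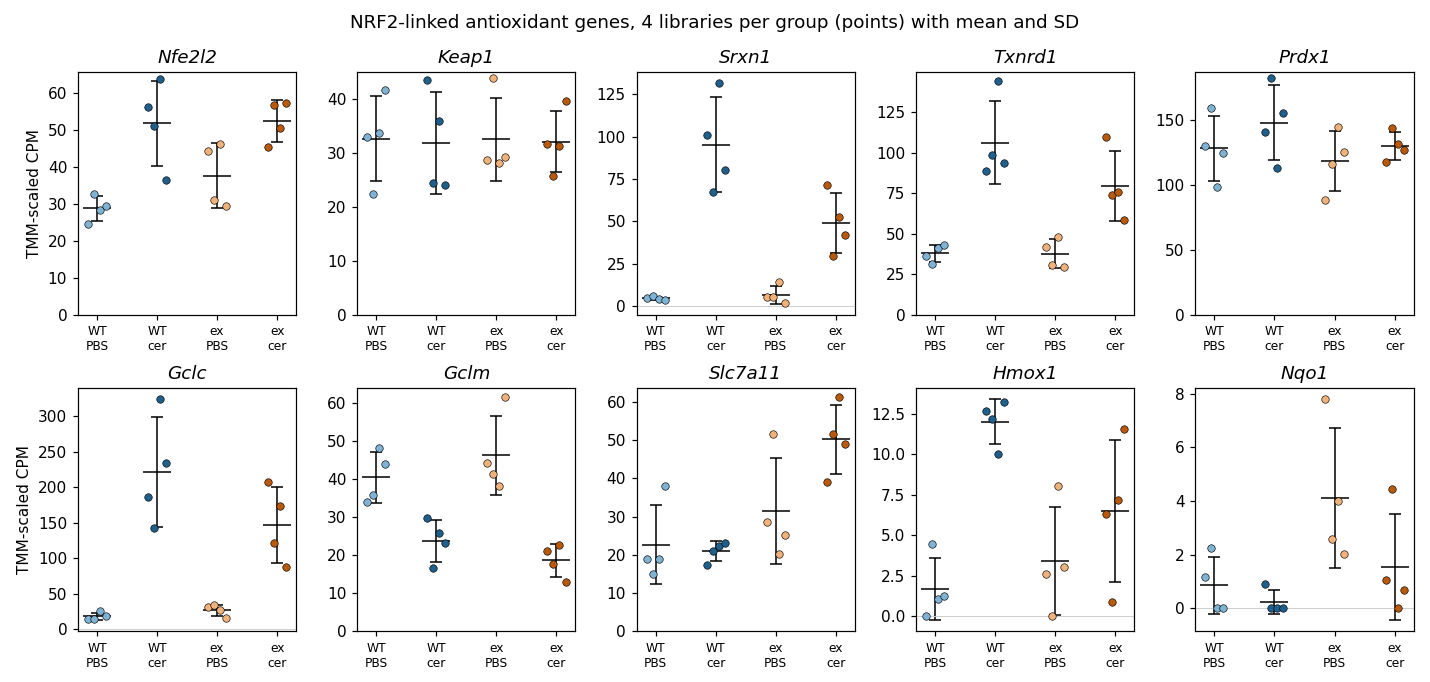
Each panel plots 1 gene's TMM-scaled CPM (y axis, separate scale per gene) in the 4 groups (x axis), with points for libraries and bars for mean and SD. Srxn1 lies between 2.02 and 14.1 CPM in PBS libraries and between 29.3 and 131.8 in cerulein libraries, Gclm falls, and Keap1 and Prdx1 overlap in all groups.

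Gene coordinates are those of the deposited table, on GRCm38, and all 10 genes are protein-coding. Nfe2l2 (ENSMUSG00000015839, chr2:75675513-75704641, minus strand), which encodes NRF2, measured 24.7, 32.8, 28.3 and 29.4 CPM in the 4 WT PBS libraries and 56.1, 50.9, 63.8 and 36.4 in WT cerulein. In Adam17ex it measured 44.2, 31.0, 46.2 and 29.3 CPM under PBS and 45.4, 56.9, 50.4 and 57.2 under cerulein. All WT cerulein libraries were above all WT PBS libraries, whereas the Adam17ex groups overlapped. The rise was 0.78 ± 0.21 in WT (edgeR adjusted p = 0.00410) and 0.52 ± 0.21 in Adam17ex (edgeR adjusted p = 0.0704), and the second was called when WT PBS replicate 2, Adam17ex PBS replicate 3 or Adam17ex cerulein replicate 1 was left out. The genotypes did not differ by the test in this response (interaction -0.26 ± 0.30, edgeR adjusted p = 0.664).

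Keap1 (chr9:21229730-21239361, minus strand), the inhibitor, was not called in any comparison. It averaged 32.6 ± 7.93 CPM with PBS and 31.9 ± 9.44 with cerulein in WT, and 32.5 ± 7.62 and 32.0 ± 5.65 in Adam17ex. The log2 fold change with cerulein was 0.00 in WT, with a 95% interval from -0.50 to 0.51, and 0.02 ± 0.26 in Adam17ex. A change in WT within this interval was not excluded. NRF2 is held back by KEAP1 as a protein, which RNA counts do not measure.

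Among 9 tested genes for NRF2 partners and degradation, 3 rose and 2 fell in WT with cerulein, and 3 rose and 0 fell in Adam17ex. With single libraries left out, 2 to 5 rose in WT, 5 of them without Adam17ex PBS replicate 1. Nfe2l1, which rose in WT, was no longer called without WT PBS replicate 1, 2 or 3, or WT cerulein replicate 2 or 3. In WT 1 fell with any single library left out other than WT PBS replicate 1, WT cerulein replicate 2, Adam17ex PBS replicate 4 and Adam17ex cerulein replicate 3. In Adam17ex 1 rose when replicate 3 or 4 of Adam17ex PBS, or replicate 3 of Adam17ex cerulein, was left out. Sqstm1, encoding p62, an autophagy receptor that competes with NRF2 for KEAP1 and is itself an NRF2 target, went from 83.2 ± 2.52 to 477 ± 108 CPM in WT and from 104 ± 10.2 to 257 ± 58.2 in Adam17ex. It rose by 2.56 ± 0.19 in WT and 1.31 ± 0.19 in Adam17ex, and its cerulein level was lower in Adam17ex, with a log2 difference of -0.83 ± 0.18 (edgeR adjusted p = 0.00405). The interaction of Sqstm1 was -1.25 and called. It was -1.19 without the 3 shallow Adam17ex PBS libraries, a fit with 1 library left in that group. Mafg, a small MAF partner of NRF2, rose by 1.08 ± 0.29 in WT and 0.93 ± 0.30 in Adam17ex, the latter no longer called when replicate 3 or 4 of Adam17ex PBS, or replicate 3 of Adam17ex cerulein, was left out. Syvn1, an endoplasmic reticulum ubiquitin ligase known to degrade NRF2, fell by 1.38 on the log2 scale in WT and measured 0.16 ± 0.33 in Adam17ex (edgeR adjusted p = 0.745). Its interaction, the difference between these responses, was 1.55 and called, a call lost in 12 of the alternatives.

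The thioredoxin arm held the gene with the greatest rise of the 10. Srxn1 (chr2:152105516-152111376, plus strand) encodes sulfiredoxin, which repairs peroxiredoxins that peroxide has over-oxidised. It measured 4.70, 5.96, 4.20 and 3.68 CPM in WT PBS and 101.3, 67.6, 131.8 and 80.2 in WT cerulein. The Adam17ex libraries gave 5.20, 5.16, 14.1 and 2.02 CPM under PBS and 71.7, 29.3, 52.8 and 42.2 under cerulein. Every cerulein library exceeded every PBS library in both genotypes. The means were 20.5 times higher with cerulein in WT and 7.41 times in Adam17ex. The test gave 4.30 ± 0.37 in WT (edgeR adjusted p = 6.02e-09) and 3.01 ± 0.43 in Adam17ex (edgeR adjusted p = 1.91e-05), the 22nd and 48th greatest log2 fold changes among the 8236 tested genes. Adam17ex PBS replicate 3, the library at 14.1 CPM, also held the highest sum of 12 macrophage and monocyte markers, 1246 CPM against 81.9 to 516 CPM in the other 7 PBS libraries. It likewise had the highest sums of fibroblast and stellate (1467 CPM), adipocyte (1583), endothelial (113), T cell (62.3) and red cell (13046) markers. Its acinar marker sum, 134725 CPM, was the lowest with PBS. The part of any of these cells in the Srxn1 value was not tested. Without the 3 shallow Adam17ex PBS libraries the difference in Adam17ex was 4.60, which sets the cerulein libraries against 1 PBS library, at 2.02 CPM, whose spread is taken from the other groups.

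Txnrd1 (chr10:82833951-82897712, plus strand) encodes cytosolic thioredoxin reductase, the selenoenzyme that recharges thioredoxin from NADPH. It measured 36.4, 31.3, 40.9 and 42.9 CPM in WT PBS and 88.6, 98.6, 144 and 93.4 in WT cerulein. Adam17ex values were 41.6, 31.0, 48.2 and 29.3 CPM under PBS and 109.7, 73.8, 75.6 and 58.6 under cerulein. The groups did not overlap in either genotype, with rises of 1.51 ± 0.22 in WT (edgeR adjusted p = 1.23e-05) and 1.10 ± 0.25 in Adam17ex (edgeR adjusted p = 0.00178).

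Prdx1 (chr4:116685544-116700822, plus strand), an abundant cytosolic peroxiredoxin that removes hydrogen peroxide and that sulfiredoxin repairs and thioredoxin recharges, was not called. Its means were 128 ± 24.9 CPM with PBS and 148 ± 29.0 with cerulein in WT, and 119 ± 23.4 and 130 ± 10.7 in Adam17ex. Its log2 fold change in WT was 0.19 ± 0.19, with a 95% interval from -0.20 to 0.58. Among 11 other tested thioredoxin and peroxiredoxin genes, 2 rose and 5 fell in WT and 2 rose and 3 fell in Adam17ex, where 1 fell without Adam17ex PBS replicate 4. Txn1, the cytosolic thioredoxin that TXNRD1 reduces, went from 98.9 ± 14.2 to 227 ± 20.2 CPM in WT and from 90.0 ± 7.73 to 155 ± 17.9 in Adam17ex, a rise of 1.21 ± 0.16 and of 0.77 ± 0.17. The second was 0.67 with edgeR adjusted p = 0.109 when the 3 shallow libraries were left out, which leaves 1 Adam17ex PBS library. Msrb1, a selenoprotein that repairs oxidised methionine, dropped by 2.98 on the log2 scale in WT and by 1.86 in Adam17ex. Prdx4, the peroxiredoxin of the endoplasmic reticulum, dropped by 1.22 in WT and was at 0.23 ± 0.24 in Adam17ex (edgeR adjusted p = 0.494), with an interaction of 1.45 ± 0.34 (edgeR adjusted p = 0.0126). Without Adam17ex PBS replicate 4 the Adam17ex value was 0.69 and called, and without the 3 shallow libraries the interaction was 0.81 and not called.

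The 2 subunits of glutamate-cysteine ligase, the rate-limiting enzyme of glutathione synthesis, went in opposite directions. Gclc (chr9:77754535-77794485, plus strand), the catalytic subunit, measured 14.1, 14.1, 25.2 and 18.4 CPM in WT PBS and 185, 143, 324 and 234 in WT cerulein. In the other genotype it measured 31.2, 33.6, 26.1 and 16.2 CPM under PBS and 207, 121, 173 and 87.2 under cerulein. No PBS library reached the lowest cerulein library. Means were 12.3 times higher with cerulein in WT and 5.49 times in Adam17ex, with log2 fold changes of 3.64 ± 0.32 (edgeR adjusted p = 6.39e-09) and 2.53 ± 0.33 (edgeR adjusted p = 5.68e-06). These ranked 41st and 83rd among all tested genes.

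Gclm (chr3:122245557-122270732, plus strand), the modifier subunit, which raises the affinity of GCLC for glutamate and eases its feedback inhibition by glutathione, measured 34.1, 35.7, 48.3 and 44.1 CPM in WT PBS and 29.8, 16.6, 25.8 and 23.1 in WT cerulein. Adam17ex libraries held 44.2, 41.3, 38.2 and 61.6 CPM under PBS and 21.1, 17.8, 22.8 and 12.9 under cerulein. Every cerulein library was below every PBS library of its genotype. The log2 difference was -0.77 ± 0.23 in WT (edgeR adjusted p = 0.0113) and -1.40 ± 0.25 in Adam17ex (edgeR adjusted p = 0.000234). The WT call was lost without WT PBS replicate 3 (-0.63, edgeR adjusted p = 0.0599). It also depended on the annotation: Gm6061, a transcribed pseudogene inside Gclm on the same strand that overlaps an exon of a short Gclm transcript, held 48 UMIs with PBS and 70 with cerulein in WT, and 13 and 53 in Adam17ex. Those totals are not scaled for depth, which averaged 608503 UMIs with PBS and 1164390 with cerulein in Adam17ex. With the UMIs of Gm6061 added to Gclm, the difference was -0.39 in WT (edgeR adjusted p = 0.130) and -0.81 in Adam17ex (edgeR adjusted p = 0.00667).

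Within a library, the number of Gclc UMIs per Gclm UMI was 0.414, 0.396, 0.522 and 0.417 in WT PBS and 6.21, 8.60, 12.6 and 10.1 in WT cerulein. It was 0.706, 0.812, 0.684 and 0.262 in Adam17ex PBS and 9.80, 6.80, 7.58 and 6.74 in Adam17ex cerulein. This ratio depends on how well the poly(A) end of each transcript is captured, so its size says nothing of the subunits' proportion, yet its change between groups is free of library scaling. With Gm6061 counted as Gclm the mean ratio went from 0.341 ± 0.0639 to 5.69 ± 1.68 in WT and from 0.569 ± 0.247 to 4.85 ± 1.47 in Adam17ex. The separation of cerulein from PBS libraries was present in both ways of counting.

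**Figure D2:**
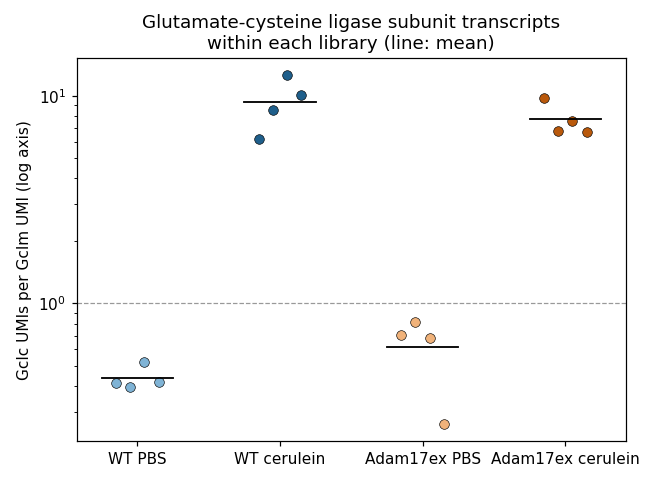
Gclc UMIs per Gclm UMI (y axis, log scale) in each library of the 4 groups (x axis), with lines for the group means and a dashed line at equal counts. All 8 PBS libraries lie below 1, between 0.262 and 0.812, and all 8 cerulein libraries lie between 6.21 and 12.6.

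Slc7a11 (chr3:49892526-50443614, minus strand) encodes xCT, the transporter that brings in cystine, from which cells make the cysteine of glutathione. It measured 18.8, 14.9, 18.9 and 38.0 CPM in WT PBS and 17.2, 21.0, 22.2 and 23.1 in WT cerulein. The Adam17ex values were 28.6, 51.6, 20.1 and 25.3 CPM under PBS and 39.0, 51.5, 61.2 and 49.0 under cerulein. In WT the groups overlapped, with a difference of -0.05 ± 0.30 and a 95% interval from -0.67 to 0.56. In Adam17ex they overlapped through PBS replicate 2, at 51.6 CPM, and the difference was 0.74 ± 0.28 (edgeR adjusted p = 0.0521). Without that library it was 1.05 and called, and it was called too without Adam17ex cerulein replicate 1 or any one of WT PBS replicates 2, 3 and 4. The difference between the responses was 0.80 ± 0.41 (edgeR adjusted p = 0.264).

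Slc3a2, the heavy chain that carries xCT and other amino acid transporters to the membrane, rose in both genotypes, by 0.96 ± 0.17 in WT and 1.57 ± 0.17 in Adam17ex. Its cerulein levels were 404 ± 55.2 CPM in WT and 417 ± 39.4 in Adam17ex. Gss, glutathione synthetase, which catalyses the step after glutamate-cysteine ligase, rose by 1.69 ± 0.39 in WT and 1.65 ± 0.48 in Adam17ex, the latter lost without Adam17ex PBS replicate 4 (1.28, edgeR adjusted p = 0.0804). Ggt1, an enzyme that breaks down extracellular glutathione, dropped by 1.42 on the log2 scale in WT. Of 13 tested genes for glutathione synthesis, recycling and peroxidases, 2 rose and 3 fell in WT, and 3 rose and 3 fell in Adam17ex, where 0 fell without replicate 4 of either group. Those that fell were Chac2, Ggt1 and Gpx4 in both genotypes. Slc3a2 and Gss rose in both, and the third to rise in Adam17ex was Chac1 (1.93 ± 0.39). Chac1 and Chac2, like Ggt1, encode enzymes that break down glutathione, so these counts are not a measure of its synthesis.

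Hmox1 (chr8:75093621-75100589, plus strand) encodes haem oxygenase-1, which splits haem into biliverdin, iron and carbon monoxide and is high in macrophages that take up red cells. It measured 0, 4.47, 1.05 and 1.23 CPM in WT PBS and 12.7, 12.2, 10.0 and 13.2 in WT cerulein, 11 to 16 UMIs per library. The Adam17ex libraries held 2.60, 0, 8.04 and 3.03 CPM under PBS and 6.33, 0.889, 7.20 and 11.6 under cerulein. The WT groups were apart and the Adam17ex groups overlapped. The rise was 2.58 ± 0.64 in WT (edgeR adjusted p = 0.00231) and 3.85 without WT PBS replicate 2, while the value in Adam17ex was 0.89 ± 0.71 (edgeR adjusted p = 0.367), with a 95% interval from -0.59 to 2.37. Adam17ex PBS replicate 3, at 8.04 CPM, is the library with the highest macrophage marker sum. It also has the highest fibroblast, adipocyte, endothelial, T cell and red cell marker sums. All 12 macrophage and monocyte markers were detected in every group. Their sum was 81.9 to 516 CPM with PBS and 184 to 274 with cerulein in WT, and 169 to 1246 and 145 to 241 in Adam17ex. Their part in Hmox1 was not tested. In whole tissue, a change in the number of cells of a type and a change of RNA per cell cannot be told apart.

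Nqo1 (chr8:107388225-107403206, minus strand), the quinone reductase often used as a reporter of NRF2 activity, was hardly detected. The WT libraries gave 1, 3, 0 and 0 UMIs with PBS and 1, 0, 0 and 0 with cerulein. Those of Adam17ex gave 3, 1, 2 and 2 with PBS and 1, 5, 0 and 1 with cerulein. A single UMI equals 2.20 CPM in the shallowest library and 0.677 in the deepest, so these values are at the limit of the depth. On log2(CPM + 1) the cerulein difference was -0.44 in WT (exact two-sided permutation p = 0.429) and -1.11 in Adam17ex (exact two-sided permutation p = 0.114). With 4 against 4 libraries the smallest p this test allows is 0.0286. After adjustment over 4 comparisons the lowest p was 0.229. A rise as large as that of Srxn1 or Gclc was not seen. Over all libraries Nqo1 went from 4 UMIs with PBS to 1 with cerulein in WT, and from 8 to 7 in Adam17ex. Srxn1 went from 19 to 454 UMIs and from 13 to 207. These totals are not scaled for depth, and the Adam17ex libraries held a mean of 608503 UMIs with PBS and 1164390 with cerulein. Scaled, the mean of Nqo1 went from 0.852 to 0.226 CPM in WT and from 4.11 to 1.54 in Adam17ex. Smaller changes of Nqo1 could not be detected at this depth.

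**Figure D3:**
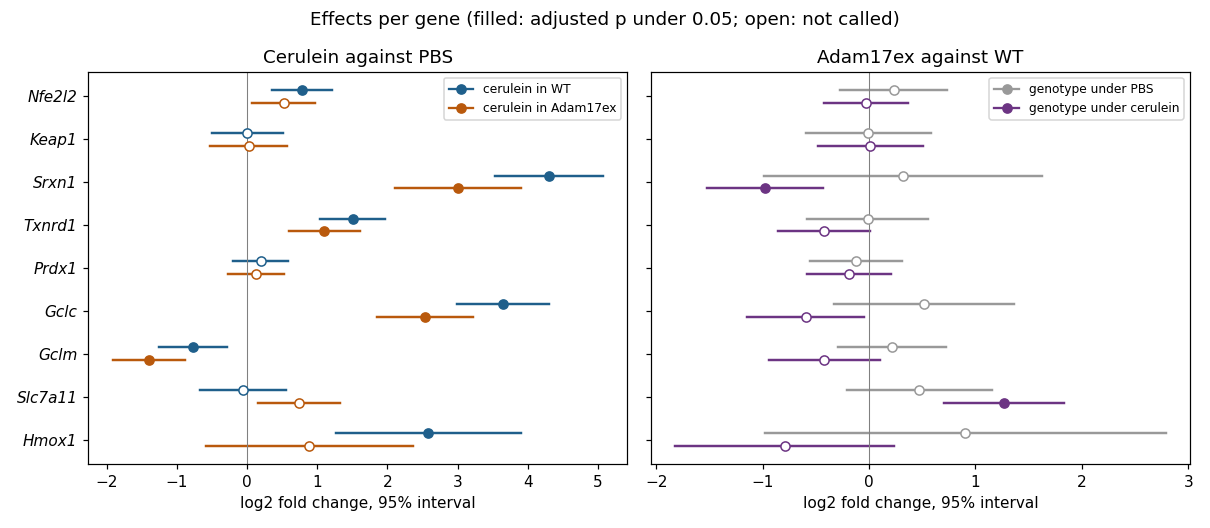
Log2 fold changes (x axis) with 95% intervals for the 9 tested genes (y axis), cerulein against PBS in each genotype on the left and Adam17ex against WT under each treatment on the right, with filled points for adjusted p under 0.05. Srxn1 at 4.30 and Gclc at 3.64 lead in WT, Gclm lies left of 0 in both genotypes, and only Slc7a11 and Srxn1 are filled in the genotype panel.

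The genotypes were then compared within each treatment. Under PBS 0 of the 9 genes were called, with 0 at an unadjusted p under 0.05 and 0 by DESeq2, where edgeR called 1.36% of all tested genes, 0.631% higher and 0.729% lower. The groups overlapped for all 10 genes, against 10.4% of tested genes whose groups did not. Under cerulein 2 of 9 were called, against 9.70% of all tested genes (5.85% higher and 3.85% lower in Adam17ex). Slc7a11 was higher in Adam17ex by 1.27 ± 0.27 (edgeR adjusted p = 0.00329), with every Adam17ex cerulein library, from 39.0 CPM up, above every WT cerulein library, up to 23.1 CPM. It was the 1 gene of the 10 whose groups did not overlap there, where 17.6% of tested genes did not. This call was kept in all alternatives tried, including each library left out, with values from 1.13 to 1.44 across the libraries left out.

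Srxn1 was lower in Adam17ex under cerulein, with a log2 difference of -0.98 ± 0.26 (edgeR adjusted p = 0.0197), at 49.0 ± 17.9 CPM against 95.2 ± 28.1 in WT. The groups overlapped by 1 library each, 71.7 CPM in Adam17ex replicate 1 against 67.6 in WT replicate 2. The call was lost without WT cerulein replicate 1 (-0.91, edgeR adjusted p = 0.126), WT cerulein replicate 3 (-0.81, adjusted p = 0.0718), Adam17ex cerulein replicate 2 (-0.81, adjusted p = 0.0675) or Adam17ex cerulein replicate 4 (-0.88, adjusted p = 0.0859). Gclc at -0.59 ± 0.27 (edgeR adjusted p = 0.171), Txnrd1 at -0.42 ± 0.21 (edgeR adjusted p = 0.227) and Hmox1 at -0.79 ± 0.50 (edgeR adjusted p = 0.356) were also below WT in their estimates and not called. Duct markers also differed between these groups, though not all in one direction. Under cerulein 5 of 7 tested were lower and 2 higher in Adam17ex. Their sum over 9 genes was 1092 to 1392.2 CPM with cerulein in WT against 448 to 569 in Adam17ex. With PBS it was 343 to 388 against 358 to 444, with none at 0. Their part in the values of Srxn1 and the other genes was not tested.

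Whether the response to cerulein itself differed by genotype was tested as an interaction. It was called for 0 of the 9 genes, with 1 at an unadjusted p under 0.05 and 0 by DESeq2, and for 6.02% of all tested genes, 3.75% higher and 2.27% lower. That 1 gene was Gclc, at -1.11 ± 0.47 (edgeR unadjusted p = 0.0272, adjusted p = 0.169). The estimate was -1.29 ± 0.69 for Srxn1 (edgeR adjusted p = 0.282) and 0.26 without the 3 shallow Adam17ex PBS libraries, a fit with 1 library left in that group. Thus a call in WT and none in Adam17ex, as for Hmox1 and Nfe2l2, is not a shown difference between the genotypes.

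The other redox genes were counted in 8 lists of pathway neighbours, which hold none of the 10 genes. Of their 84 tested genes 13 rose and 36 fell with cerulein in WT, and 12 rose and 28 fell in Adam17ex, with medians of -0.58 and -0.36. Of all tested genes 19.8% rose and 21.3% fell in WT, and 14.1% rose and 16.2% fell in Adam17ex, which are also the shares to set beside the counts of each list. The count of lower genes in Adam17ex was 7 without Adam17ex PBS replicate 4, the deepest library of that group, and 15 and 16 without Adam17ex cerulein replicates 1 and 4. The glutathione transferases, which couple glutathione to electrophiles and include well-known NRF2 targets, had the lowest median: 1 of 15 rose and 10 fell in WT (median -1.50), and 0 rose and 7 fell in Adam17ex (median -0.74). In Adam17ex 0 fell and 2 rose without Adam17ex PBS replicate 4, and 3 and 4 fell without Adam17ex cerulein replicates 1 and 4. The gene that rose in WT was no longer called without WT PBS replicate 1, 3 or 4 or WT cerulein replicate 2 or 4. Gstm1 went from 194 ± 19.5 CPM with PBS to 34.0 ± 9.02 with cerulein in WT, and from 129 ± 41.3 to 71.6 ± 12.03 in Adam17ex. It fell by 2.45 on the log2 scale in WT. Its fall in Adam17ex, by 0.83, was lost when replicate 4 of either Adam17ex group was left out. Gstm and Gstp genes have near-identical copies that can share reads, so the values of single copies are uncertain.

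**Figure D4:**
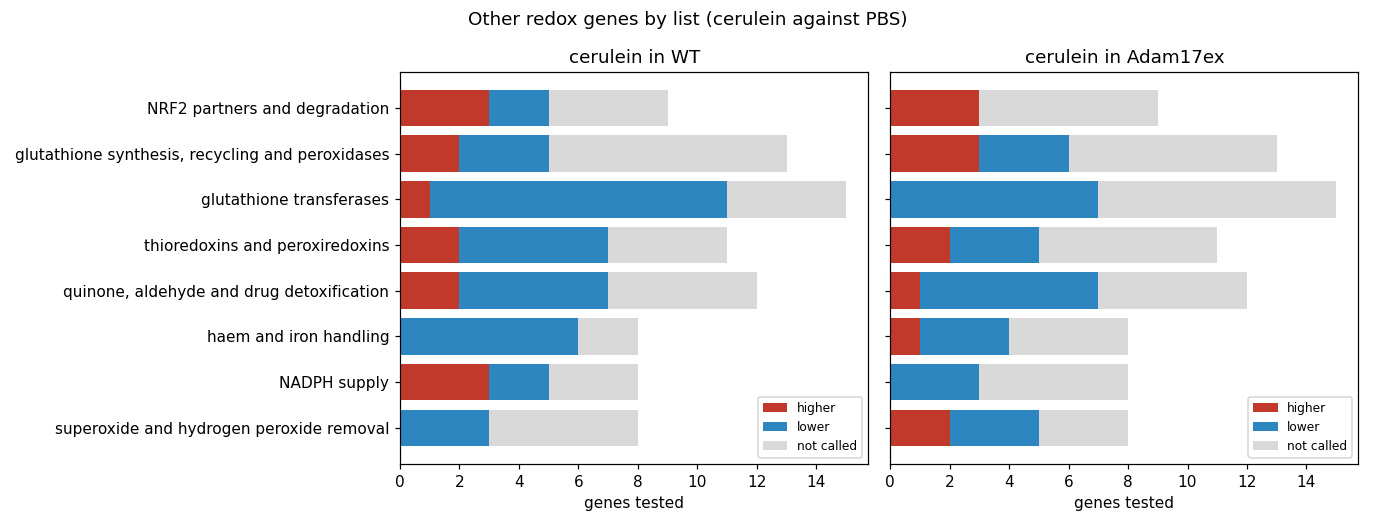
Number of tested genes (x axis) in each of 8 redox lists (y axis) that were higher, lower or not called with cerulein, in WT on the left and Adam17ex on the right. Glutathione transferases have 10 lower and 1 higher of 15 in WT, and haem and iron genes 6 lower and 0 higher of 8.

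Quinone, aldehyde and drug detoxification genes split, with 2 of 12 higher and 5 lower in WT and 1 higher and 6 lower in Adam17ex. The last count was 2 without Adam17ex PBS replicate 4, and 3 without Adam17ex PBS replicate 3 or replicate 1 or 2 of Adam17ex cerulein. The higher count in WT was 1 without WT cerulein replicate 4. Akr1b8, an aldo-keto reductase, rose from 4.98 ± 3.27 to 59.9 ± 18.0 CPM in WT, by 3.65 ± 0.37, and from 9.67 ± 4.28 to 29.1 ± 9.35 CPM in Adam17ex, by 1.57 ± 0.40. Its interaction was -2.08 and called, a call lost in 12 of the alternatives. Ces1d, a carboxylesterase, went from 46.6 ± 2.94 to 3.85 ± 2.61 CPM in WT and from 34.0 ± 9.26 to 14.3 ± 3.74 in Adam17ex. Adipocyte markers were lower in the same comparisons, 6 of 6 tested in WT and 5 of 6 in Adam17ex. Their sum over 10 genes was 68.2 to 770 CPM with PBS and 39.4 to 79.7 with cerulein in WT, where Plin1, Lep and Pck1 were at 0 with cerulein, and 208 to 1583 and 85.1 to 641 in Adam17ex, where Lep was. Their part in the value of Ces1d was not tested. Of 8 genes for NADPH supply, which feeds thioredoxin and glutathione reductases, 3 rose and 2 fell in WT, and 0 rose and 3 fell in Adam17ex, where 1 fell when replicate 3 or 4 of Adam17ex PBS, or replicate 1 or 4 of Adam17ex cerulein, was left out. In Adam17ex 1 rose without WT PBS replicate 2, 3 or 4, Adam17ex PBS replicate 2 or Adam17ex cerulein replicate 1. Me1, malic enzyme, rose by 2.09 ± 0.38 in WT and was at 0.29 ± 0.40 in Adam17ex (edgeR adjusted p = 0.608). Its interaction was -1.80 and not called, though it was called without Adam17ex PBS replicate 2 or 4. Pgd, 6-phosphogluconate dehydrogenase, rose by 1.07 ± 0.21 in WT and was lower with cerulein in Adam17ex (-0.69 ± 0.24, edgeR adjusted p = 0.0345), a call lost in 13 of the alternatives. The interaction was -1.75 ± 0.32 (edgeR adjusted p = 0.00191) and was called in all alternatives. Under cerulein it was lower in Adam17ex, with a log2 difference of -1.20 ± 0.21 (edgeR adjusted p = 0.000579), at 14.8 ± 1.49 against 34.5 ± 3.49 CPM.

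Haem and iron genes gave 0 of 8 higher and 6 lower in WT, and 1 higher and 3 lower in Adam17ex. The WT count of lower genes was 4 to 6 with single libraries left out. Of those 6 genes, Fth1 and Slc48a1 lost their calls in 18 and 16 of the alternatives. Red cell markers were lower in the same comparison, 5 of 5 tested in WT and 0 of 5 in Adam17ex. Their sum over 6 genes was 433 to 10183 CPM with PBS and 498 to 2933 with cerulein in WT, where Slc4a1 was at 0 with cerulein, and 3093 to 13046 and 1765 to 10192 in Adam17ex. Their part in the haem and iron genes was not tested. Ftl1, the ferritin light chain, moved in opposite directions: it dropped by 0.81 on the log2 scale in WT, from 305 ± 47.7 to 169 ± 29.2 CPM, and rose by 0.56 ± 0.18 in Adam17ex, from 168 ± 25.3 to 249 ± 38.6 CPM. The Adam17ex rise, the 1 haem and iron gene called higher there, was no longer called without Adam17ex PBS replicate 2, Adam17ex cerulein replicate 3 or the 3 shallow libraries. The interaction was 1.37 ± 0.26 (edgeR adjusted p = 0.00236). For superoxide and hydrogen peroxide removal 0 of 8 rose and 3 fell in WT. There 1, Oxsr1, rose without WT PBS replicate 1, WT cerulein replicate 1, any Adam17ex PBS library or Adam17ex cerulein replicate 4. Oxsr1, at 1.06 and not called in WT, was called in 14 of the alternatives in all. In Adam17ex 2 rose, Sesn2 and Dnajb9, and 3 fell, where 1 fell without Adam17ex PBS replicate 4. Oxsr1, a kinase, and Dnajb9, a co-chaperone of the endoplasmic reticulum, do not themselves remove superoxide or peroxide. Sesn2 is neither a superoxide dismutase nor catalase. Of the list's genes for those enzymes, Sod1, Sod2, Sod3 and Cat, none was called higher with cerulein in either genotype. Cat, catalase, was at 22.2 ± 3.86 CPM in WT PBS and 8.51 ± 2.84 in WT cerulein, a difference of -1.39 ± 0.44 that was no longer called without WT cerulein replicate 3 (-1.22, edgeR adjusted p = 0.0588). Sod2, the mitochondrial superoxide dismutase, dropped by 0.97 in WT.

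Between genotypes under cerulein, 15 of the 84 genes were higher and 5 lower in Adam17ex, 5 of the 15 being glutathione transferases (2 without WT cerulein replicate 1 and 3 without Adam17ex cerulein replicate 4). The count of higher genes ranged from 7 to 16 over the libraries left out one at a time, the lowest without WT cerulein replicate 1. It was 10 without WT cerulein replicate 3 or Adam17ex cerulein replicate 4. The lower count was 3 when replicate 1 or 2 of WT cerulein or any Adam17ex cerulein library was left out. Of all tested genes 5.85% were higher and 3.85% lower. Under PBS 1 was higher and 1 lower. The interaction was called for 13 higher and 3 lower, where 3.75% and 2.27% of all tested genes were. The higher count was 7 without Adam17ex cerulein replicate 2. With the 3 shallow Adam17ex PBS libraries left out it was 2 higher and 1 lower of 95 tested, but that fit has 1 library in the group. For the glutathione transferases the interaction count of 3 was 0 in that fit, and 5 without Adam17ex PBS replicate 4.

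The genes whose levels ran most like Srxn1 over the 16 libraries were Efhd2 (Pearson r = 0.973 on log2 CPM), Pmm1 (0.960), Dnajb2 (0.959) and Tpm4 (0.959). These values are descriptive and carry the shared difference between PBS and cerulein libraries. Pmm1, a phosphomannomutase, was at 12.1 ± 5.84, 153 ± 39.9, 14.9 ± 6.24 and 86.0 ± 14.2 CPM, with PBS and then cerulein, first in WT and then in Adam17ex. Efhd2, a calcium-binding actin regulator, was at 39.1 ± 2.53, 228 ± 32.9, 47.1 ± 11.2 and 137 ± 20.5 CPM in the same order. Both had the order of Srxn1, with WT cerulein highest and Adam17ex cerulein next. For Nqo1 the counts were too low for such a comparison.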

How the data were processed

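Per the labels' protocols, RNA was isolated with TRIzol from frozen pancreas, and 30 ng per sample entered a poly(A)-primed, multiplexed library with a UMI of 10 bp and a sense read of 101 bp. The authors deposited whole-number counts per gene and library, without normalization. The build GRCm38 and the tools R 4.1.2, limma 3.50.0 and edgeR 3.36.0 come from the submitters' processing notes. An aligner, a counting program and UMI collapsing stay unnamed: not given in the sources used here.

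The counts were analysed in R 4.3.3 with edgeR 4.0.16 (filterByExpr with minimum count 10, TMM, glmQLFit and glmQLFTest, 1 coefficient per group plus sex, 16 libraries, 11 residual degrees of freedom). The filter kept 8236 of 24019 genes. Nqo1, under the filter, was tested by exact permutation of log2(CPM + 1) with a pseudocount of 1. Replicate pairs differed beyond sampling noise in 24 of 24 cases (chi-square per degree of freedom 3.06 to 9.50). Named neighbours are up to 4 genes per list with the smallest p for cerulein in WT, and for Srxn1 the 4 genes with the highest correlation. The 10 genes and all lists were chosen with earlier results of these data known. The script was tested on simulated data. Alternatives were other scalings, no filter, DESeq2 1.42.0, no sex covariate, a replicate block and libraries left out, and, chosen after seeing the data, Gm6061 counted as Gclm.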

Additional observations from a re-analysis of the deposited data

Results flagged for a closer look

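In groups of 4 libraries, a highest or lowest value was set aside for a second look where its gap to the next value took more of the group's range than Dixon's 95% critical value. Of 40 groups looked at, 2 gave such a value, and chance alone gives about 1 in 20. Keap1 was at 43.9 CPM in Adam17ex PBS replicate 2, where the other 3 libraries of the group lay between 28.1 and 29.3 CPM. Nqo1 was at 0.904 CPM in WT cerulein replicate 1, which is 1 UMI, while the other 3 libraries had 0.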

How the results depend on the processing

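Of the 9 tested genes, 6 were called between cerulein and PBS in WT and 4 in Adam17ex. Between the genotypes 2 were called with cerulein and 0 with PBS, and for the interaction 0. With single libraries left out these counts were 5 to 6, 4 to 6, 1 to 2, 0 and 0, and the other alternatives moved none of them by over 1.5 times. Over all genes, calls ranged from 402 to 913 for genotype under cerulein, from 30 to 370 for genotype under PBS and from 239 to 624 for the interaction with single libraries left out. Genotype under PBS, 112 genes called, gave 331 with no filter, 184 by DESeq2, 406 without the sex covariate, 230 with the replicate block, 15 without the 3 shallow libraries and 50 without WT PBS replicates 1 and 2. Leaving out the 3 shallow libraries leaves 1 Adam17ex PBS library, assumed to vary like the other groups, and in that setting cerulein in Adam17ex gave 1360 in place of 2493 and the interaction 152 in place of 496. These counts were the same to within 1.5 times under the other settings, and the causes were not tested apart from fewer libraries.

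Slc7a11 under cerulein in Adam17ex passed the threshold with RLE factors (edgeR adjusted p = 0.0491), enzymes left out of scaling (0.0460), no filter (0.0118), no sex covariate (0.0477) and without WT PBS replicates 1 and 2 (0.0317). Signs turned only in values that were not called. For cerulein in WT, Keap1 was -0.0037 with upper-quartile factors, -0.0080 with the block, -0.032 without the shallow libraries and -0.20 without WT PBS replicates 1 and 2. For genotype under cerulein, Keap1 was -0.011 with RLE and by DESeq2, -0.018 with upper-quartile factors and -0.00026 with enzymes out of scaling, and Nfe2l2 was 0.022 without sex, 0.0016 with the block and 0.014 without the shallow libraries. For genotype under PBS, Keap1 was 0.0019 with enzymes out, Txnrd1 0.081 with the block, Srxn1 -1.20 and Gclc -0.15 without the shallow libraries, and Gclm -0.0054 and Prdx1 0.059 without WT PBS replicates 1 and 2. For the interaction, Keap1 was -0.0095 with RLE, -0.010 by DESeq2 and -0.0022 with enzymes out, Prdx1 0.065 with no filter, and without the shallow libraries Nfe2l2 was 0.0078, Srxn1 0.26 and Txnrd1 0.0022.

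With single libraries left out, uncalled values that crossed 0 ranged as follows. Keap1 went from -0.15 to 0.17 for cerulein in WT, from -0.073 to 0.19 for cerulein in Adam17ex, from -0.16 to 0.30 and from -0.19 to 0.12 for genotype under cerulein and PBS, and from -0.14 to 0.20 for the interaction. Slc7a11 went from -0.20 to 0.31 for cerulein in WT, Nfe2l2 from -0.17 to 0.089 for genotype under cerulein, and Prdx1 from -0.20 to 0.072 for the interaction. For genotype under PBS, Srxn1 went from -0.42 to 0.89, Txnrd1 from -0.16 to 0.16 and Gclm from -0.20 to 0.29.

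The replicate numbers did not pair the libraries: of 24 same-numbered pairs 5 had a correlation of deviations over 0.1 (range -0.22 to 0.24), and 6 of 16 libraries correlated best with their own number. With the replicate block the member counts stayed at 6, 4, 2, 0 and 0. Depth limits Nqo1, Hmox1 and Srxn1 in PBS libraries, where single UMIs set the values.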
